A study of Glycine max with 4 samples.

Results

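The PIP2 aquaporins are a group of water channels of the plant plasma membrane. The listed soybean (Glycine max) PIP2 gene models were 10, in duplicated pairs on chromosomes 2 and 16, 10 and 20, 11 and 12, and 12 and 13. They were looked up by exact identifier in a table of 54175 gene models, and 2 of the 10 were in it: Glyma12g29510 on chromosome 12 and Glyma13g40100 on chromosome 13, the 2 copies of a single duplicated pair. The other 8 identifiers, Glyma02g08110, Glyma02g08120, Glyma16g27130, Glyma16g27140, Glyma10g35520, Glyma20g32000, Glyma11g20600 and Glyma12g08040, have no row under those numbers and were not analysed here, so nothing below speaks for the PIP2 family as a whole. Both copies passed the filter on low values and belonged to the 32697 gene models tested.

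Aquaporins form pores that let water cross membranes along an osmotic gradient. In plants the plasma membrane intrinsic proteins fall into the PIP1 and PIP2 groups. PIP2 proteins are the more active water channels when expressed alone in frog oocytes, and both groups are found in leaves, where water moves from the veins through living cells to the sites of evaporation. The leaf RNA of soybean changes widely when soil dries, and aquaporin transcripts are among those often followed in such experiments.

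Leaf RNA was sequenced from 2 soybean lines, Pana, labelled drought susceptible, and PI 567690, labelled drought tolerant, and the series title contrasts them for canopy wilting. Each line had a control and a drought group of 3 libraries (12 in all), which the design text calls biological replicates. All plants grew in pots of soil mixed with sand, the drought groups were stressed for 15 days from stage V5, and leaf tissue was sampled at R2, full bloom. Each phenotype is represented by 1 line, and the labels do not say which plants gave each library, so the spread behind each p-value is that among libraries and may be technical. Levels are FPKM, which scale the reads of a gene by its length and by the sequencing depth, so levels of the copies can be set side by side. Levels in leaf RNA cannot tell fewer expressing cells apart from less RNA per cell. Leaf marker genes were not analysed here, because none of the identifiers (0 of 54175) matched the name table used.

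Some libraries stood apart. By the size of their FPKM steps, the libraries had 48.3% to 100% of the depth of Pana drought library 3. The number of reads behind each value is not known, so no counting interval is given. Pana control library 1 listed 15657 gene models at 0, against 9535 to 12093 in the others. Pana drought library 3 correlated best with PI 567690 control library 1 (r = 0.938 across genes) and reached at most 0.863 with a library of its own group. The other Pana drought libraries and PI 567690 drought library 1 also correlated best with a library of the other line, but under the same treatment (r = 0.92 to 0.936, against 0.901 to 0.925 within their groups). PI 567690 drought libraries 2 and 3 were nearly alike (r = 0.992), as were PI 567690 control libraries 2 and 3 (r = 0.987), and only the drought libraries were also merged.

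Glyma12g29510 was lower under drought than under control in every library of both lines. In the Pana controls it stood at 80.13, 69.67 and 134.7 FPKM, and in Pana drought at 30.14, 18.23 and 42.59 FPKM. The highest Pana drought value, that of library 3, was still below all 3 Pana controls. Across genes this library correlated best with a PI 567690 control library. In PI 567690 the control libraries held 59.21, 40.29 and 41.74 FPKM and the drought libraries 8.491, 14.47 and 13.18 FPKM. No drought library of PI 567690 overlapped with a control of either line.

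Its duplicate Glyma13g40100 had a like profile. The Pana controls held 61.78, 131.8 and 163.9 FPKM and the Pana drought libraries 27.88, 14.48 and 46.62 FPKM. Library 1 was the lowest Pana control of this copy, and library 3 the highest Pana drought library. In PI 567690 the controls held 76.19, 46.76 and 46.56 FPKM, against 10.9, 20.24 and 19.31 FPKM under drought. Control and drought libraries did not overlap within either line.

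**Figure D1:**
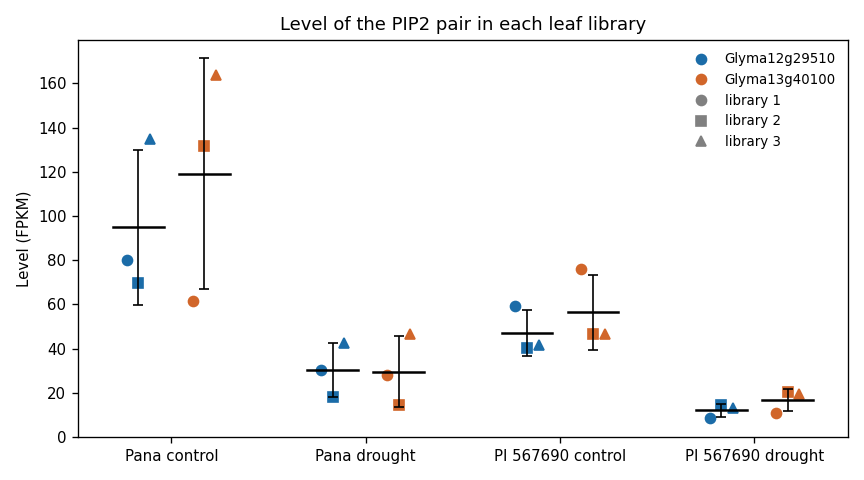
Level of Glyma12g29510 (blue) and Glyma13g40100 (orange) in FPKM on a linear axis, by line and treatment. Each point is 1 library, the marker shape gives the library number, the horizontal line is the mean and the bar is the SD (n = 3). The drought libraries of each line lie below all controls of the same line. PI 567690 drought library 1 has the lowest value of each copy, 8.491 and 10.9 FPKM. The PI 567690 drought values reach 20.24 FPKM, above both values of Pana drought library 2 (18.23 and 14.48 FPKM).

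The fall in the tolerant line passed the test for both copies. In PI 567690, Glyma12g29510 went from 47.1 ± 10.5 to 12 ± 3.15 FPKM (mean ± SD, n = 3), a log2 fold change of -1.89 ± 0.36 SE on the log2(FPKM + 1) scale, or 3.71-fold lower (limma, Benjamini-Hochberg adjusted p = 0.00676). Glyma13g40100 went from 56.5 ± 17 to 16.8 ± 5.14 FPKM, a log2 fold change of -1.7 ± 0.46 SE, or 3.24-fold lower (adjusted p = 0.0361). Among all 32697 tested gene models, 6.25% were called lower in this comparison, and 21.4% had every drought library below every control. Over all tested models the median log2 fold change was 0.21, and 2.83% and 3.58% of them had a lower value than Glyma12g29510 and Glyma13g40100.

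The call of Glyma12g29510 in PI 567690 was kept in all 20 alternatives run (adjusted p 0.00191 to 0.0358). That of Glyma13g40100 was kept in 12 of 20. It was lost without any 1 of the 6 PI 567690 libraries (adjusted p from 0.0674 without drought library 2 to 0.151 without drought library 1), without Pana control library 2 (0.0502) and when PI 567690 drought libraries 2 and 3 were merged into their mean (0.0709). Its log2 fold change stayed between -1.94 and -1.43 over these alternatives. With 1 PI 567690 library left out, 1582 to 2170 of all tested models were called in either direction, against 4023 with all libraries.

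In the susceptible line the estimated falls were of like size, and they sat at the threshold. The mean of Glyma12g29510 was 94.8 ± 34.9 FPKM in Pana control and 30.3 ± 12.2 FPKM in Pana drought (n = 3), a log2 fold change of -1.63 ± 0.36 SE, or 3.1-fold lower (limma adjusted p = 0.0429). That of Glyma13g40100 was 119 ± 52.2 FPKM and 29.7 ± 16.1 FPKM, with a log2 fold change of -2 ± 0.46 SE that did not pass (adjusted p = 0.0503). So 1 of 2 copies was called lower, where 0.658% of all tested models were, and both had every drought library below every control, as did 3.94% of all tested models. In Pana the median over all tested models was 0.32 (log2), and 1.47% and 0.82% of them had a lower value than Glyma12g29510 and Glyma13g40100.

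The Pana calls changed with the libraries and the settings used. Without Pana drought library 3 both copies were called (Glyma13g40100 log2 fold change -2.39, adjusted p = 0.00806). In that fit 8257 of all 32697 tested models were called in either direction, against 704 with all libraries. Without both Pana control library 1 and Pana drought library 3 the log2 fold changes were -2 for Glyma12g29510 and -2.81 for Glyma13g40100 (adjusted p = 0.00803 and 0.00255). There 10233 of all tested models were called. With the 6 Pana libraries fitted alone neither copy passed (adjusted p = 0.366 for both), and 0 of all tested models were called. The calls of the pair thus moved along with those of all tested models in these 3 fits. Glyma12g29510 also lost its Pana call (adjusted p from 0.064 to 0.12) when control library 1 or 2 or drought library 1 or 2 of Pana was left out, and likewise for each PI 567690 library other than drought library 1. Over all 20 alternatives its log2 fold change was between -2.04 and -1.32, and that of Glyma13g40100 between -2.81 and -1.58. When the libraries were scaled to equal median ratios, the median drought change over all tested models went from 0.32 to 0.0226 in Pana and from 0.21 to 0.00529 in PI 567690 (log2). It made the fall larger in both copies and both lines, with both called in Pana (log2 fold change -2.04 and -2.41, adjusted p = 0.0235 and 0.0294).

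In each line 3 of 3 drought libraries lay below all controls for both copies. An exact permutation of 3 against 3 libraries has 20 arrangements and cannot give a two-sided p below 0.1, and both copies had that value in each line, which the lack of overlap fixes.

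Whether the lines differed in the size of the fall was tested as the difference of the responses, PI 567690 minus Pana. It was -0.26 ± 0.5 SE for Glyma12g29510 (95% interval -1.36 to 0.85, limma adjusted p = 0.814) and 0.31 ± 0.65 SE for Glyma13g40100 (-1.13 to 1.74, adjusted p = 0.833). In limma 0 of 2 copies passed, while 5.59% of all tested models were called. At an unadjusted limma p under 0.05 it was also 0 of 2, against 19.1% of all tested models. The intervals are wide and include differences of more than 1 log2 unit in either direction for Glyma13g40100. The sign for Glyma12g29510 turned to 0.11 without Pana control library 1 and Pana drought library 3, and to 0.0188 without the latter alone. For Glyma13g40100 it turned to -0.11 without Pana drought library 2.

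**Figure D2:**
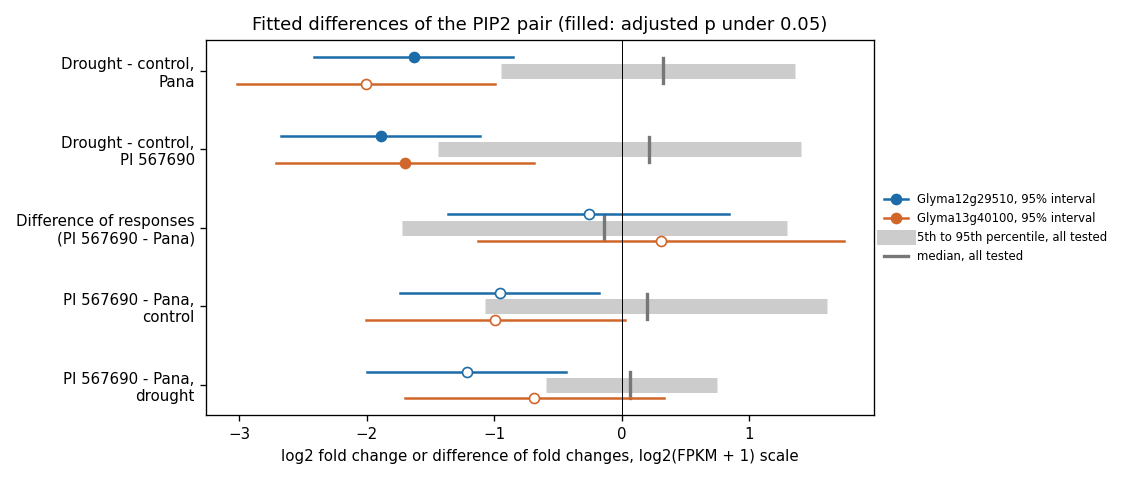
Fitted log2 differences of Glyma12g29510 (blue) and Glyma13g40100 (orange) in the 5 comparisons, with 95% intervals, on the log2(FPKM + 1) scale. Filled circles passed an adjusted p of 0.05, the grey band spans the 5th to the 95th percentile of all 32697 tested models and the grey tick is their median. Both drought comparisons lie to the left of the band, from -2 to -1.63.

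The levels of the lines themselves were compared next. The group means of both copies had the same order, with Pana control highest, then the PI 567690 control, the drought group of Pana and that of PI 567690. In well-watered leaves the log2 difference of PI 567690 against Pana was -0.96 ± 0.36 SE for Glyma12g29510 (limma adjusted p = 0.0982) and -0.99 ± 0.46 SE for Glyma13g40100 (adjusted p = 0.18). Under drought it was -1.22 ± 0.36 SE (adjusted p = 0.322) and -0.68 ± 0.46 SE (adjusted p = 0.965). So 0 of 2 copies passed in either treatment by limma. At an unadjusted limma p under 0.05 it was Glyma12g29510 alone in each treatment, where 29.4% of all tested models were under control and 6.84% under drought. These shares count both directions. Models with such a p that were higher in PI 567690, unlike Glyma12g29510, made up 21.7% of all tested models under control and 5.03% under drought. All tested models gave 3.13% called lower in PI 567690 under control and 0.0979% under drought.

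The neighbours in that order could be told apart by single libraries only in part. The libraries of Glyma12g29510 did not overlap between the controls of the lines (lowest Pana 69.67, highest PI 567690 59.21 FPKM) or between their drought groups (lowest Pana 18.23, highest PI 567690 14.47 FPKM). In all tested models such a gap with PI 567690 lower occurred in 12.5% under control and 3.37% under drought. Those of Glyma13g40100 overlapped in both treatments. PI 567690 control and Pana drought overlapped in both copies, through Pana drought library 3 alone (42.59 FPKM for Glyma12g29510 and 46.62 FPKM for Glyma13g40100). The other Pana drought libraries were at most at 30.14 and 27.88 FPKM, below every PI 567690 control (lowest 40.29 and 46.56 FPKM). Without Pana control library 1 and Pana drought library 3, Glyma13g40100 was called lower in the PI 567690 controls (log2 difference -1.4, adjusted p = 0.0215), and Glyma12g29510 was not (-1.05, adjusted p = 0.0619). In that fit 6478 of all tested models were called between the controls in either direction, against 4762 with all libraries.

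Relative to other leaf transcripts the pair was abundant in controls and less so under drought. The group mean of Glyma13g40100 was above that of 97.5% of the tested models in Pana control and 95% in PI 567690 control, and that of Glyma12g29510 above 96.7% and 93.8%. Under drought in Pana the shares were 88.2% for Glyma13g40100 and 88.5% for Glyma12g29510. In PI 567690 drought they were 78% and 69.7%. The summed level of the copies went from 214 ± 79.1 FPKM under control to 60 ± 28.3 FPKM under drought in Pana, and from 104 ± 27.6 to 28.9 ± 8.28 FPKM in PI 567690 (n = 3 each).

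Both copies contributed to the sum in every library. Glyma12g29510 held between 34.6% of it (Pana control library 2) and 56.5% (Pana control library 1). In PI 567690 the ratio of Glyma13g40100 to Glyma12g29510 was above 1 in 6 of 6 libraries, 1.29, 1.16 and 1.12 in controls and 1.28, 1.4 and 1.46 under drought. In Pana it lay on both sides of 1, at 0.77, 1.89 and 1.22 in controls and 0.92, 0.79 and 1.09 under drought. The Pana controls thus ranged more widely than the other 9 libraries together.

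The change of the balance of the copies with drought did not pass its test. The log2 ratio of Glyma13g40100 to Glyma12g29510 was lower by 0.37 under drought in Pana and higher by 0.19 in PI 567690. The mean difference was -0.0894 (two-sided exact permutation test within lines, p = 0.745). Between the lines, PI 567690 minus Pana, the log2 ratio differed by -0.0331 under control and by 0.532 under drought. The mean difference between the lines was 0.25 (exact permutation within treatments, added after the values were seen, p = 0.26, adjusted p = 0.52 over the 2 tests of the ratio). Over 15 alternatives the mean difference between the lines ranged from 0.0885 without Pana control library 1 (exact permutation p = 0.69) to 0.41 without Pana control library 2 (exact permutation p = 0.02). The latter was the only 1 of the 15 with a p under 0.05, and these p-values are not adjusted. Reads that match both copies may have been divided between them by the authors' software in a way the sources do not give, so the levels of single copies and their ratio are less certain than their sum.

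**Figure D3:**
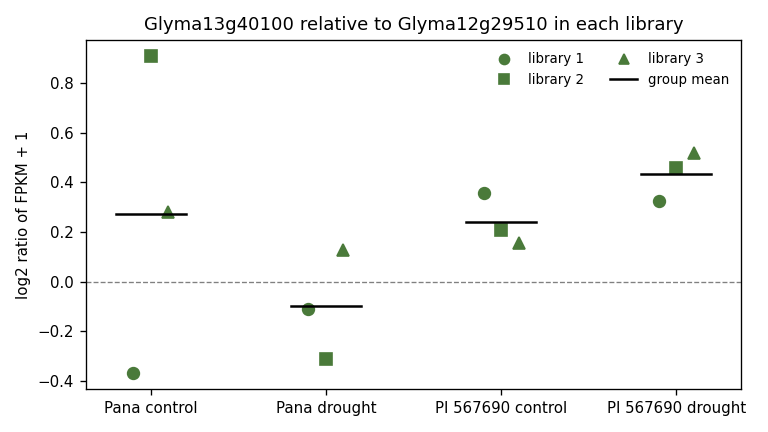
Log2 ratio of Glyma13g40100 to Glyma12g29510 (FPKM + 1) in each library, by line and treatment. Points are libraries, with the marker shape giving the library number, horizontal lines are group means and the dashed line marks equal levels. All 6 PI 567690 libraries lie above equality, from 0.154 to 0.518, and the Pana controls range from -0.37 to 0.91.

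The copies followed each other closely. Over the 12 libraries the log2(FPKM + 1) levels of the pair had a Pearson correlation of 0.954, and the deviations from the group means one of 0.842. These are descriptions over 12 points that fall into 4 groups and share library and depth, and reads common to the copies would raise them. Of 32695 other tested models, 1 was closer to Glyma12g29510 than its duplicate was, and 2 were closer to Glyma13g40100.

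The models most like the summed pair, among 17780 with a mean of at least 5 FPKM, were Glyma14g05170 (r = 0.971) and Glyma15g00581 (r = 0.957), over 12 libraries. Glyma14g05170 went from 42.8 ± 7.24 to 25.9 ± 11.1 FPKM in Pana and from 29.1 ± 4.17 to 16 ± 2.14 FPKM in PI 567690 (n = 3 each). Its drought fold changes were smaller than those of the pair, log2 -0.77 in Pana and -0.83 in PI 567690. Neither passed (limma adjusted p = 0.121 and 0.0833). Glyma15g00581 had a log2 fold change of -1.12 in PI 567690, which passed, and of -0.91 in Pana, which did not (limma adjusted p = 0.0117 and 0.0658). Both were picked for a pattern that includes the fall under drought, so these values describe them and are no independent test. The files do not pair either identifier with a name.

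The surroundings of the pair were read from the order of the identifiers along each chromosome, 5 models on each side. Of the 10 models around Glyma12g29510, 6 were tested, with drought fold changes in Pana of median log2 0.8. Of the 10 around Glyma13g40100, 9 were tested, with a median of 0.45. In Pana 0 of these 15 neighbours were called by limma, and 4 had an unadjusted p under 0.05, all 4 with a higher level under drought, where 29.7% of all tested models had such a p and 24.3% had it with a higher level. In PI 567690 the medians were -0.2 and 0.24. By limma 2 of the 15 neighbours were called lower there, 1 on each chromosome, against 6.25% of all tested models. They were Glyma12g29530 (log2 fold change -1.98, adjusted p = 0.00887) and Glyma13g40110 (-1.98, adjusted p = 0.0179), both named after their values were seen. In the difference of responses 2 of the 15 were called, against 5.59% of all tested models. They were the same 2 models (log2 -2.73 and -2.94, limma adjusted p = 0.0173 and 0.0232), while the aquaporin copies were not called. Both called neighbours were low, with means of 2.02 and 2.23 FPKM, against 46.1 and 55.5 FPKM for Glyma12g29510 and Glyma13g40100.

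**Figure D4:**
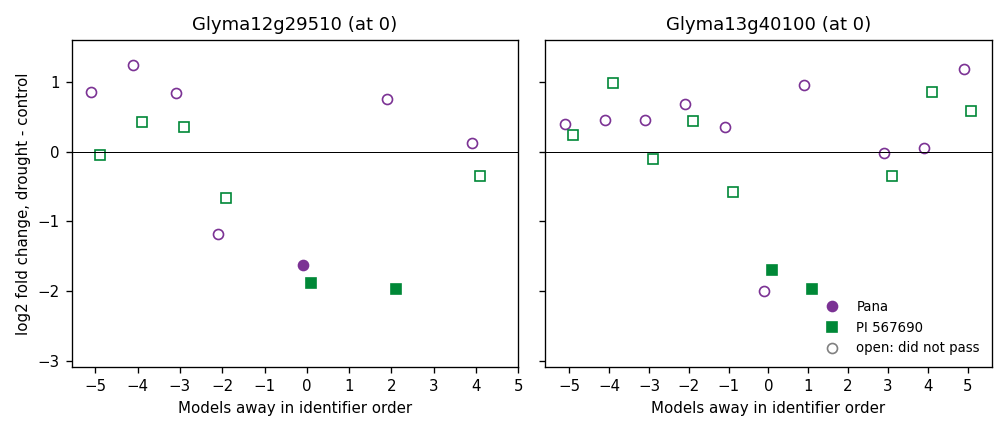
Log2 fold change under drought of the tested models within 5 identifiers of Glyma12g29510 (left) and Glyma13g40100 (right), in Pana (circles) and PI 567690 (squares). Filled symbols passed an adjusted p of 0.05 and untested models leave a gap. In Pana the aquaporin copies, at position 0, have the lowest values, -1.63 and -2.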

How the data were processed

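Leaf RNA-seq of 4 groups was given as 1 table with 3 columns per group, and each column was placed by the line and treatment in its name. The values were taken as FPKM computed by the authors: the deposited table names no unit, which was inferred from fractional values, unequal column totals and low values in steps that depend on the gene. Per the submitters' processing notes the tools were FastQC, TopHat 1.4.1, Cufflinks and Cuffdiff, and neither a genome build nor an annotation is given in the sources used. FPKM is relative, so a rise of a few abundant genes lowers all others.

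From these values, the 32697 models that reached 1 FPKM in 3 or more libraries entered tests on log2(FPKM + 1), which understates changes of low genes, with limma 3.58.1 in R 4.3.3 (trend, 1 coefficient per group, residual degrees of freedom 8, prior 3.42) and Benjamini-Hochberg adjustment over all tested models at 0.05. Exact permutation tests, the relative depth (most frequent ratio of low values between libraries) and plots used Python 3.11.15, numpy 2.4.6, pandas 2.3.3, scipy 1.17.1 and matplotlib 3.10.9. The limma and permutation steps were tested on simulated data. The labels do not say that replicate numbers pair libraries, and not every same-numbered pair deviated together: between the drought groups the correlations of deviations were 0.66, -0.11 and 0.61 for numbers 1 to 3, and between the other groups -0.06 to 0.16. The numbers were therefore not used as a block in the reported fit.

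The members and lists were chosen with earlier results of these data known. Set to be named were the members and the 2 models most like their sum. The 2 called neighbours were named after their values were seen. Models numbered just after an absent listed identifier were picked after the table was seen, and only some of them were named. Other aquaporin families, leaf markers and sequences were not analysed here, because no identifier matched the RefSeq table of 59048 genes. Alternatives covered scaling, the filter, the pseudocount, the libraries in the fit, a replicate block and each library left out.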

Additional observations from a re-analysis of the deposited data

How the results depend on the processing

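Of the 2 copies, 1 was called in Pana drought against control. It was 2 after scaling to an equal median ratio, with log2(FPKM + 0.25) and without Pana control library 1 and Pana drought library 3. It was 0 with no filter on low values, with the 2 groups fitted alone and with PI 567690 drought libraries 2 and 3 averaged, and from 0 to 2 when 1 library was left out. In PI 567690, 2 were called, 1 with drought libraries 2 and 3 averaged and from 1 to 2 with 1 library left out. In the PI 567690 against Pana controls, 0 were called, and 1 without Pana control library 1 and Pana drought library 3. The difference of responses needs all 4 groups and has no fit on 2 groups alone. A replicate block kept the number called in each comparison, 1 in Pana and 2 in PI 567690 (Glyma12g29510 adjusted p = 0.0485 in Pana). The log2 fold changes under drought were negative in all 20 alternatives for both copies and both lines. For the difference of responses, the reversed signs were 0.11 (without Pana control library 1 and Pana drought library 3) and 0.0188 (without Pana drought library 3) for Glyma12g29510, and -0.11 (without Pana drought library 2) for Glyma13g40100. With 1 library left out they ranged from -0.57 to 0.0188 and from -0.11 to 0.72. The change of the copies' log2 ratio under drought turned to 0.0696 without Pana control library 2, over a range from -0.25 to 0.0696 with 1 library left out. Over all models, the count called under drought ranged from 0 (the 6 Pana libraries alone) to 10233 (without Pana control library 1 and Pana drought library 3) in Pana, against 704, and from 1504 (mean of at least 5 FPKM) to 14731 (PI 567690 alone) in PI 567690, against 4023. The number of reads behind the values is not known, and the cause of these shifts was not tested.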

Other observations

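For 7 of the 8 listed PIP2 identifiers that the table lacks, the table holds 1 model whose number follows the listed identifier within the next 9 numbers. These models were picked by that rule after the table was seen, the files do not pair them with a name, and they are not counted as PIP2 genes. Of the 7, Glyma11g20606 stayed below 1 FPKM in all 12 libraries and was not tested. In PI 567690 drought against control, 2 of the 6 tested were called lower by limma, against 6.25% of all tested models, and 0 were called higher. Glyma12g08041 held 174.5, 179.6 and 158.4 FPKM in PI 567690 control and 15.73, 46.09 and 43.78 FPKM under drought, a log2 fold change of -2.39 (adjusted p = 0.0342). Glyma20g32005 held 85.21, 135.3 and 113.7 FPKM in the same controls and 22.94, 32.81 and 32.33 FPKM under drought, a log2 fold change of -1.88 (adjusted p = 0.0214). In Pana 0 of the 6 were called and 0 had an unadjusted limma p under 0.05, against 29.7% of all tested models. The difference of responses was called in 0 of the 6, against 5.59% of all tested models (limma adjusted p = 0.219 for Glyma12g08041 and 0.455 for Glyma20g32005). At an unadjusted limma p under 0.05 it was 1 of the 6, against 19.1% of all tested models. Glyma12g08041 stood at 22.36, 58.09 and 64.59 FPKM in Pana control and at 16.78, 27.62 and 109.2 FPKM in Pana drought. The highest value was that of Pana drought library 3, which correlated best with a PI 567690 control library, and it was above all Pana controls. Glyma10g35521 had the same order in Pana drought, with 8.908, 45.21 and 131.3 FPKM, and was at 112.8, 120.3 and 101.4 FPKM in PI 567690 control and 20.85, 29.4 and 30.1 FPKM in PI 567690 drought (log2 fold change -2.03, adjusted p = 0.135). Glyma02g08115 went the other way in PI 567690, from 13.2 ± 5.78 to 28.4 ± 3.25 FPKM, and did not pass (log2 fold change 1.11, adjusted p = 0.327).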
